A study of Mus musculus with 2 samples.

Results

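The calcium/calmodulin-dependent protein kinases and their activating kinases were followed through both deposited profiles of the mouse cerebellar granule cell layer. The family was defined as 10 genes: the activating kinases Camkk1 and Camkk2, the type I kinases Camk1, Camk1d and Camk1g, the type IV kinase Camk4, and the type II subunits Camk2a, Camk2b, Camk2d and Camk2g. A probe set, the group of short probes that gives 1 value on the array, was taken as a member when its only annotated gene symbol was on this list. This gave 31 probe sets of 45037 and 9 genes of 18193. Camkk1 had no such probe set and was not analysed here. The genes were chosen by name, with earlier results of these arrays known.

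Both samples came from intact male C57BL/6J mice aged 8 weeks, without transgene or treatment, and they formed a single group with no control. The granule cell layer was cut by laser capture microdissection from frozen sagittal sections 12 μm thick, and roughly 1 ng of its total RNA went through 2 rounds of amplification and biotin labelling before hybridization to an Affymetrix array. Both titles name animal 1, so the spread between sample 1 and sample 2 may be technical and is not read as a spread between animals. Values are signal intensities in array units, and with 1 group of 2 samples no test between conditions was possible.

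Calcium that enters an active neuron binds calmodulin, and calcium-loaded calmodulin opens the catalytic site of these kinases. Type I and type IV kinases reach full activity only after an activating kinase, CaMKK, has phosphorylated their activation loop, which makes them a cascade. The type II kinase assembles into large holoenzymes that phosphorylate themselves and need no upstream kinase. CaMKIV is found largely in the nucleus, where it phosphorylates the transcription factor CREB, and it has long been known as a granule cell kinase of the cerebellum.

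A probe set was called above background in a sample when it exceeded the 95th percentile of the probe sets of genes typical of other organs, which was 13.1 in sample 1 and 15.6 in sample 2. For a gene, represented by its brightest probe set, the thresholds were 17.9 and 17.8. Of the 9 measured genes 6 were above background in both samples, namely Camkk2, Camk4, Camk1d, Camk2b, Camk2d and Camk2g, against 42.6% of all named genes. Of the 31 probe sets 14 were above background in both samples, against 31.8% of all probe sets. That share, like the later ones over all probe sets, includes probe sets without a single annotated symbol, which the members exclude. A further 3 passed in sample 1 alone and 5 in sample 2 alone, and 9 passed in neither. Intensities of different probe sets depend on their probes, so no gene's level was set against another's.

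**Figure D1:**
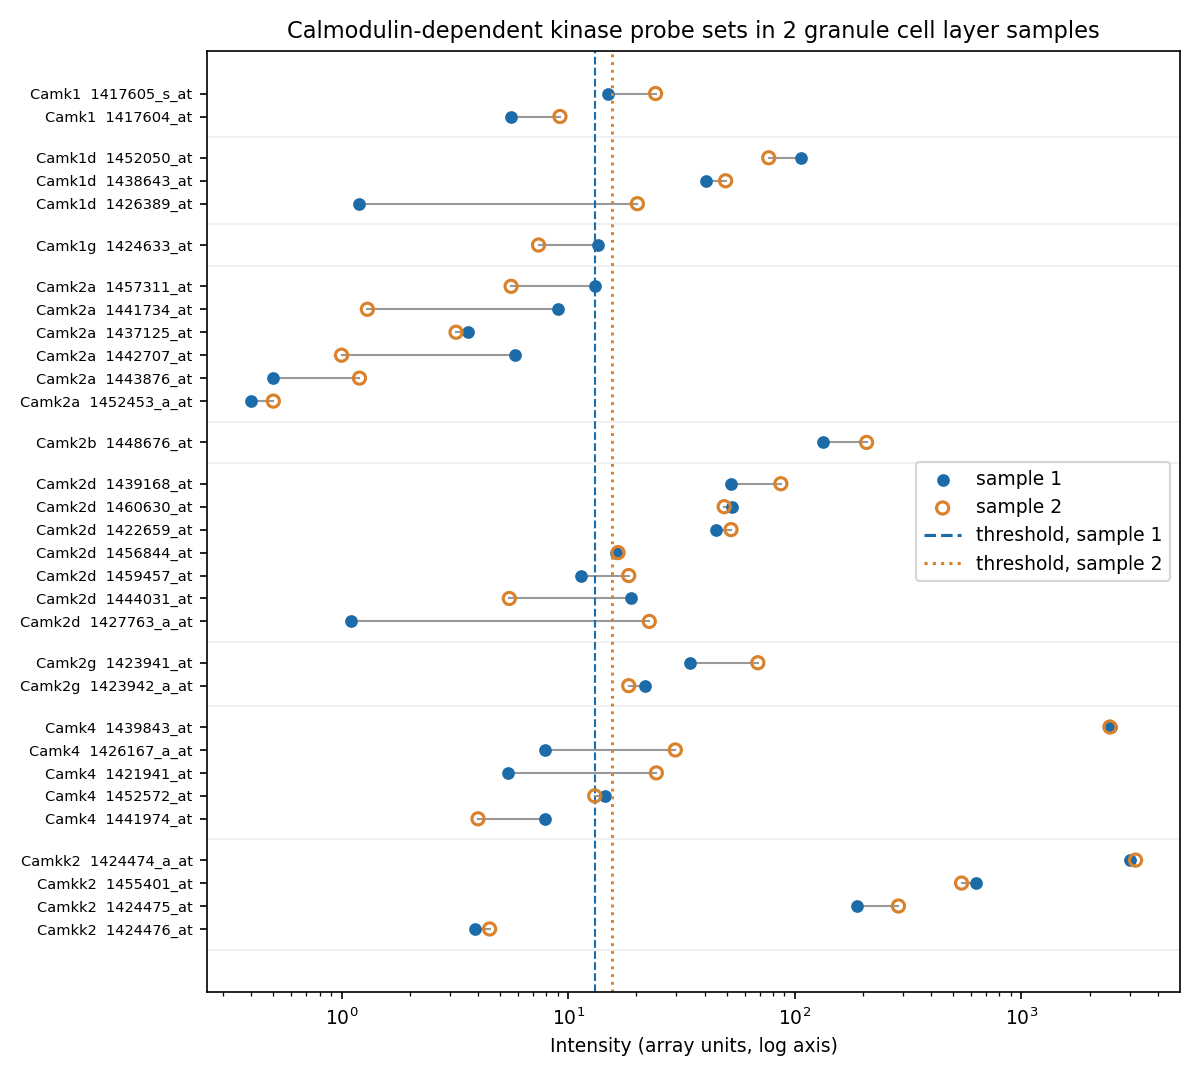
Intensity (log axis, array units) of each of the 31 kinase probe sets in sample 1 (filled circles) and sample 2 (open circles), by gene, with the background threshold of sample 1 (dashed line, 13.1) and sample 2 (dotted line, 15.6). Far right of the thresholds in both samples lay 1 probe set of Camk4 and 3 of Camkk2, and all 6 of Camk2a were at or left of the thresholds.

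The activating kinase CaMKK2 was above background in both samples on 3 of its 4 probe sets. The Camkk2 probe set 1424474_a_at read 3008.8 in sample 1 and 3187.6 in sample 2, a mean of 3098 ± 126 (SD, n = 2). A second Camkk2 probe set, 1455401_at, gave 628.7 and 544.3 (mean 586.5 ± 59.7), and another, 1424475_at, gave 188.7 and 286.7 (238 ± 69.3). All 3 were far above the thresholds in both samples, and the 2 samples lay within 1.52-fold of each other on each. The fourth Camkk2 probe set, 1424476_at, was at 3.9 and 4.5 and was not above background in either sample. The 4 probe sets of this gene therefore did not give the same call.

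The type I kinases act in the cytoplasm below CaMKK and have roles in axon and dendrite growth. Camk1d, which encodes CaMKIδ, was above background in both samples with 2 of its 3 probe sets. The Camk1d probe set 1452050_at gave 106.4 in sample 1 and 76.7 in sample 2 (91.6 ± 21.0), and 1438643_at gave 40.6 and 49.5 (45.1 ± 6.29). The direction of the difference between the samples was opposite on these 2 probe sets. The remaining Camk1d probe set, 1426389_at, was at 1.2 in sample 1 and 20.2 in sample 2, above background in sample 2 alone. Camk1, encoding CaMKIα, lay near the limit. Its probe set 1417605_s_at gave 15.0 and 24.3, which passed the thresholds for probe sets, but sample 1 fell short of the higher gene threshold of 17.9. The suffix of that probe set marks probes that can match more than 1 transcript or gene, and the other Camk1 probe set, 1417604_at, was below background at 5.6 and 9.2. Camk1g, encoding CaMKIγ, had a single probe set with 13.6 in sample 1 and 7.4 in sample 2. It passed the probe set threshold in sample 1 only, by a small margin.

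Sequences before the start are shown for the 4 genes whose promoter stretches used here reached upstream of the annotated gene. The call was not used to choose them: Camkk2 and Camk1d passed the gene threshold in both samples, Camk1 and Camk1g did not. The sequences are from the RefSeq promoter table (build GRCm38.p6, all on the minus strand). They are limited to bases upstream of the annotated gene, and have each CG dinucleotide in capitals. The Camkk2 stretch is chr5:122779523-122779660 with 13 CG dinucleotides in 138 bases, that of Camk1d is chr2:5714861-5715012 with 15 in 152 bases, that of Camk1 is chr6:113343923-113344172 with 11 in 250 bases, and that of Camk1g is chr1:193370356-193370532 with 1 in 177 bases.
Camkk2: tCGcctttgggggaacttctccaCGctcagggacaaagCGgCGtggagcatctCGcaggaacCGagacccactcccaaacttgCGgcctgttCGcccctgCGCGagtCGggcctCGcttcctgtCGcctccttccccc
Camk1d: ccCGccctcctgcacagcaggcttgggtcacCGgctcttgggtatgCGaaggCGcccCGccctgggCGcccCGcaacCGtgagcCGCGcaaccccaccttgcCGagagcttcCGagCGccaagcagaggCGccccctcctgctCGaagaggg
Camk1: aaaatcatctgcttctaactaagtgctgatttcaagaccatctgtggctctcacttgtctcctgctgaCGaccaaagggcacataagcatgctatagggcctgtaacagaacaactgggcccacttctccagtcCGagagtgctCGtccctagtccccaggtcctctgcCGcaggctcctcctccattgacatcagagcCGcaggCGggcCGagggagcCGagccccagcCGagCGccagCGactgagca
Camk1g: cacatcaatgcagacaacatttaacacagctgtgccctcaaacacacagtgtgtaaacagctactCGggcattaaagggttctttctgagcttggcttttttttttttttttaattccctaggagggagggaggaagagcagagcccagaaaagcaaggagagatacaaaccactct

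The table's windows of 300 bases, which run from 250 bases before a transcript start to 50 after it, were searched on both strands for 3 motifs, none of which contains another. Of the 8 windows searched, from 7 of the 10 genes (windows of the other 3 were not used here), 6 held the GC box GGGCGG, against 35.7% of all 32851 windows. These were windows of Camkk2, Camkk1, Camk2b, Camk2d and both windows of Camk1d. The CREB site core TGACG was found in the windows of Camk1 and Camkk1, against 20.8% of all windows, and the E-box CAGATG, a motif of proneural factors, in those of Camk1 and in 1 of Camk1d, against 17.2%. The GC content was 73.3% for Camkk2, 77.3% for Camk2b, 70.3% for Camk2d and 71.3% and 48.7% for the windows of Camk1d. These genes passed the gene threshold in both samples. GC content was 60.0% for Camk1 and 44.7% for Camk1g, which did not, and 75.3% for Camkk1, which had no member probe set. The median over all windows was 52.7%. Windows of the genes that passed were the richer in GC, except the 48.7% window of Camk1d, which lay below that of Camk1. That window and those of Camk2b, Camk2d and Camkk1 held no bases upstream of the annotated gene. A link between GC content and call was not tested on so few windows. A match describes the letters of the window and is not a measured binding site.

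CaMKIV, the nuclear target of CaMKK, was above background in both samples on 1 of its 5 probe sets. The Camk4 probe set 1439843_at gave 2496.7 in sample 1 and 2457.9 in sample 2 (2477 ± 27.4, n = 2), a log2 difference (sample 1 minus sample 2) of 0.02. The other 4 probe sets of Camk4 were dim. 1426167_a_at gave 7.9 and 29.7, and 1421941_at gave 5.4 and 24.5, both above background in sample 2 only. 1452572_at gave 14.5 and 13.1, above background in sample 1 only, and 1441974_at was below it in both at 7.9 and 4.0. The call for Camk4 thus rests on a single probe set, whose values were far above both thresholds.

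The type II kinase is an enzyme of mixed subunits, of which α is best known from forebrain synapses and from Purkinje cells, and β, which also binds actin, from cerebellum and forebrain. None of the 6 Camk2a probe sets exceeded the threshold in either sample. The brightest, 1457311_at, gave 13.1 in sample 1, equal to the threshold and so not above it, and 5.6 in sample 2. The other 5 lay between 0.4 and 9.0 in sample 1 and between 0.5 and 3.2 in sample 2. Camk2a was therefore not detectable above the background of these arrays, which does not show that the transcript is absent.

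Camk2b was measured by 1 probe set, 1448676_at, with 133.6 in sample 1 and 207.4 in sample 2 (170.5 ± 52.2). Both values were well above the thresholds and sample 2 was the higher. Camk2d, encoding the δ subunit, which is widely expressed outside neurons as well, had 4 of 7 probe sets above background in both samples. These were 1439168_at (52.1 and 86.8), 1460630_at (52.7 and 48.8), 1422659_at (44.8 and 52.3) and 1456844_at (16.3 and 16.6). The first was higher in sample 2, whereas the others differed by at most 1.17-fold. The remaining Camk2d probe sets passed in 1 sample each: 1459457_at (11.4 and 18.5) and 1427763_a_at (1.1 and 22.8) in sample 2, and 1444031_at (18.9 and 5.5) in sample 1. Camk2g, encoding the γ subunit, was above background with both of its probe sets. The Camk2g probe set 1423941_at gave 34.6 and 68.7 (51.7 ± 24.1) and 1423942_a_at gave 21.9 and 18.5 (20.2 ± 2.40), so that the samples differed in opposite directions on the 2 probe sets.

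Disagreement between probe sets of the same gene was common in the family. Of the 7 members with 2 or more probe sets, 5 had some that passed in both samples and some that did not, against 49.3% of all 9010 such genes. These members had 2 to 7 probe sets each, and the 9010 genes were not matched on that number, so the shares are not compared. Control probe sets at both ends of 2 transcripts were read beside this: the ratio of the 3′ to the 5′ probe set was 10.1 in sample 1 and 10.4 in sample 2 for Gapdh, and 29.0 and 37.9 for Actb. The positions of the kinase probe sets along their transcripts were not analysed here, and the part of such a 3′ excess in the dim probe sets was not tested.

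The samples were then compared on the members above background in both. None of these 14 probe sets was 2-fold apart, against 14.3% of all probe sets above background in both, and with so few members nothing is read from that difference. Of the 14, 5 were over 1.5-fold apart, 1 probe set each of Camk1, Camk2b, Camk2d, Camk2g and Camkk2. The share of all probe sets over 1.5-fold apart was not counted, so nothing is read from this count. Each of the 5 was higher in sample 2, also after quantile normalization, and the 5 members higher in sample 1 were within 1.5-fold. The direction of all probe sets over 1.5-fold apart was not counted either, so nothing is read from that of these 5. The log2 differences of the 14 ran from -0.99, for Camk2g 1423941_at, to 0.47, for Camk1d 1452050_at. The median was -0.15, against -0.07 over all probe sets above background in both. Of the 14, 9 were higher in sample 2, as were 55.4% of all such probe sets. After quantile normalization 7 were higher in each sample, so no direction is given for the family.

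With probe sets above background in at least 1 sample included, 5 of 22 members were 2-fold apart, against 30.7% of all. Of these, 4 were higher in sample 2 (15.6% of all) and 1 in sample 1 (15.1% of all). They were Camk1d 1426389_at, Camk2d 1427763_a_at, Camk4 1426167_a_at and 1421941_at, and, higher in sample 1, Camk2d 1444031_at. In each the lower value was below its threshold, so no fold is given. All 5 had a mean intensity under 20, a range in which 58.3% of all probe sets above background in at least 1 sample were 2-fold apart. That share was 30.8% between 20 and 100, 6.88% between 100 and 1000 and 0% from 1000 up, and the members in these 3 ranges (7, 3 and 2 probe sets) included none that was 2-fold apart.

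**Figure D2:**
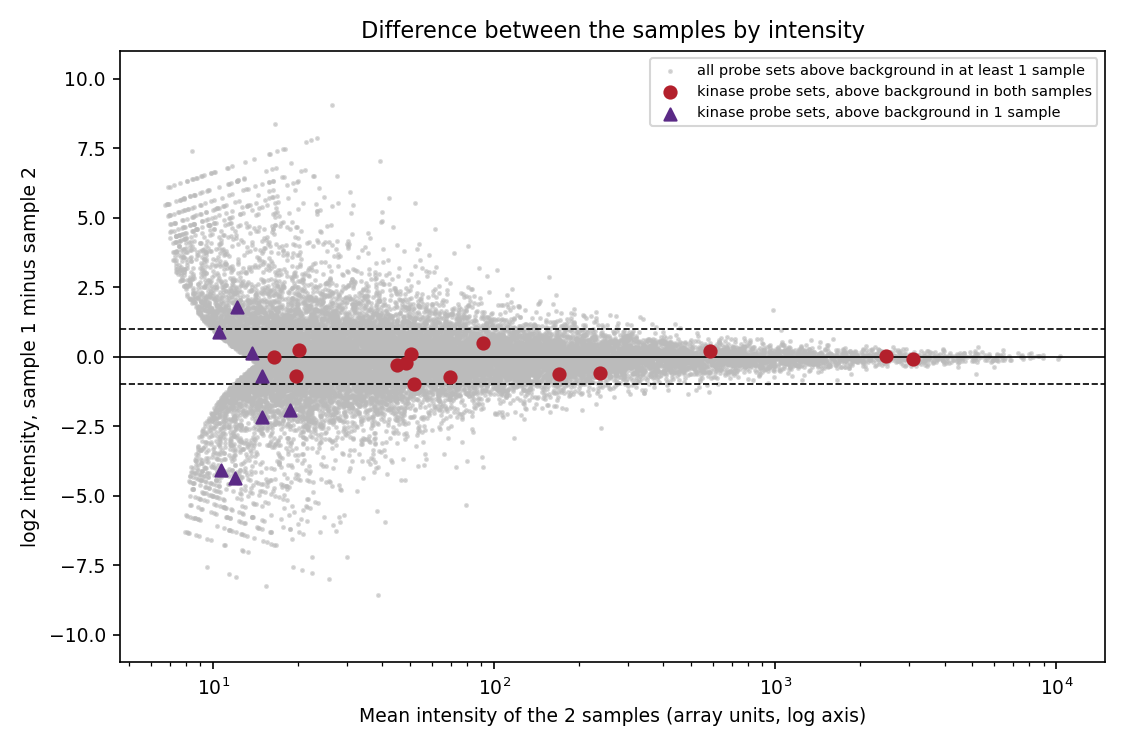
Difference between the samples (log2 intensity, sample 1 minus sample 2) against mean intensity (log axis, array units) for all probe sets above background in at least 1 sample (grey) and for the kinase probe sets above background in both samples (circles) or in 1 (triangles); dashed lines mark 2-fold. The 14 circles lie within the dashed lines and the 5 members beyond them are triangles with mean intensities under 20.

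The genes around the kinases were described by lists chosen by function, with 42.6% of all named genes above background for comparison. Among calmodulin-like genes and proteins that bind calmodulin, 2 of 6 measured genes were above background in both samples. The growth cone protein gene Gap43 gave 215.5 and 220.4, and Pcp4, a small calmodulin-binding protein that is also prominent in Purkinje cells, gave 345.7 and 505.0. The calmodulin-like genes Calml3 (3.4 and 1.8) and Calml4 (3.5 and 2.6) were below background.

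Of the inhibitors and phosphatases of the kinases, 8 of 9 genes were above background in both samples. The inhibitor proteins of the type II kinase, Camk2n1 (658.8 and 739.9) and Camk2n2 (198.4 and 256.7), were above background in both samples. Ppm1e, a phosphatase of calmodulin-dependent kinases, gave 29.1 and 22.0, and its relative Ppm1f gave 11.2 and 47.2 and passed in sample 2 alone. The catalytic subunits of protein phosphatase 1 gave 389.2 and 268.5 (Ppp1ca), 1239.3 and 1487.2 (Ppp1cb) and 5610.9 and 6228.9 (Ppp1cc). Those of protein phosphatase 2A gave 1385.9 and 1727.5 (Ppp2ca) and 40.8 and 42.8 (Ppp2cb). On the genes of this list that passed in both samples, the values of both samples lay within 2-fold.

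Calcineurin is the phosphatase that calcium and calmodulin switch on, opposite in action to the kinases. Of its 8 genes and regulators 6 were above background. The catalytic subunits Ppp3ca (2314.1 and 2528.7) and Ppp3cb (1436.6 and 1491.4) and the regulatory subunit Ppp3r1 (328.0 and 345.6) had closely similar values in both samples. The calcineurin inhibitors Rcan1 (167.8 and 95.9), Rcan2 (850.4 and 589.5) and Rcan3 (61.0 and 45.7) had higher values in sample 1. The subunits Ppp3cc (5.3 and 5.2) and Ppp3r2 (0.3 and 1.2), the second of which is known from testis, were below background.

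Of the nuclear and metabolic targets of the cascade, 16 of 18 measured genes were above background in both samples. With the mean of all probe sets of each gene in place of the brightest, the count was 13, against 38.1% of all named genes. Probe sets of the same gene disagreed here too: Akt1 passed on 1 of 4, and Mef2a on 4 of 6. CREB itself, Creb1, gave 242.8 and 188.8. The coactivators that CREB recruits gave 320.2 and 192.6 (Crebbp) and 163.2 and 95.3 (Ep300), and the CREB-regulated coactivators gave 25.1 and 20.4 (Crtc1) and 66.1 and 37.2 (Crtc3). Crtc2 was below background in both samples, at 13.7 and 13.1. The myocyte enhancer factors Mef2a (195.0 and 347.6), Mef2c (73.8 and 42.6) and Mef2d (213.5 and 155.5) and the histone deacetylases that bind them, Hdac4 (37.8 and 30.4), Hdac5 (77.2 and 154.9) and Hdac9 (71.2 and 83.0), were above background in both. So were Crem (32.8 and 25.3), Srf (67.9 and 63.1), the kinase gene Akt1 (60.1 and 42.0), and the AMP-activated kinase subunits Prkaa2 (63.6 and 42.2) and Prkab1 (129.9 and 128.4). Prkaa1, the other catalytic subunit of that kinase, which CaMKK2 can phosphorylate, was above background in sample 2 alone (9.0 and 27.7).

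Of the 16 nuclear and metabolic targets above background in both samples, 13 had the higher value in sample 1, against 45.9% of all genes above background in both. Their median log2 difference was 0.37, against -0.05 over all those genes. The count was 13 under quantile normalization as well. It was also 13 under median scaling, which raised every log2 difference by the same amount. Among the same genes that count could not fall, so median scaling was no check on it. Hdac5 (77.2 and 154.9) was the only 1 of the 16 that was 2-fold apart on the unscaled values. With 1 sample on each side these differences have no replicate check.

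**Figure D3:**
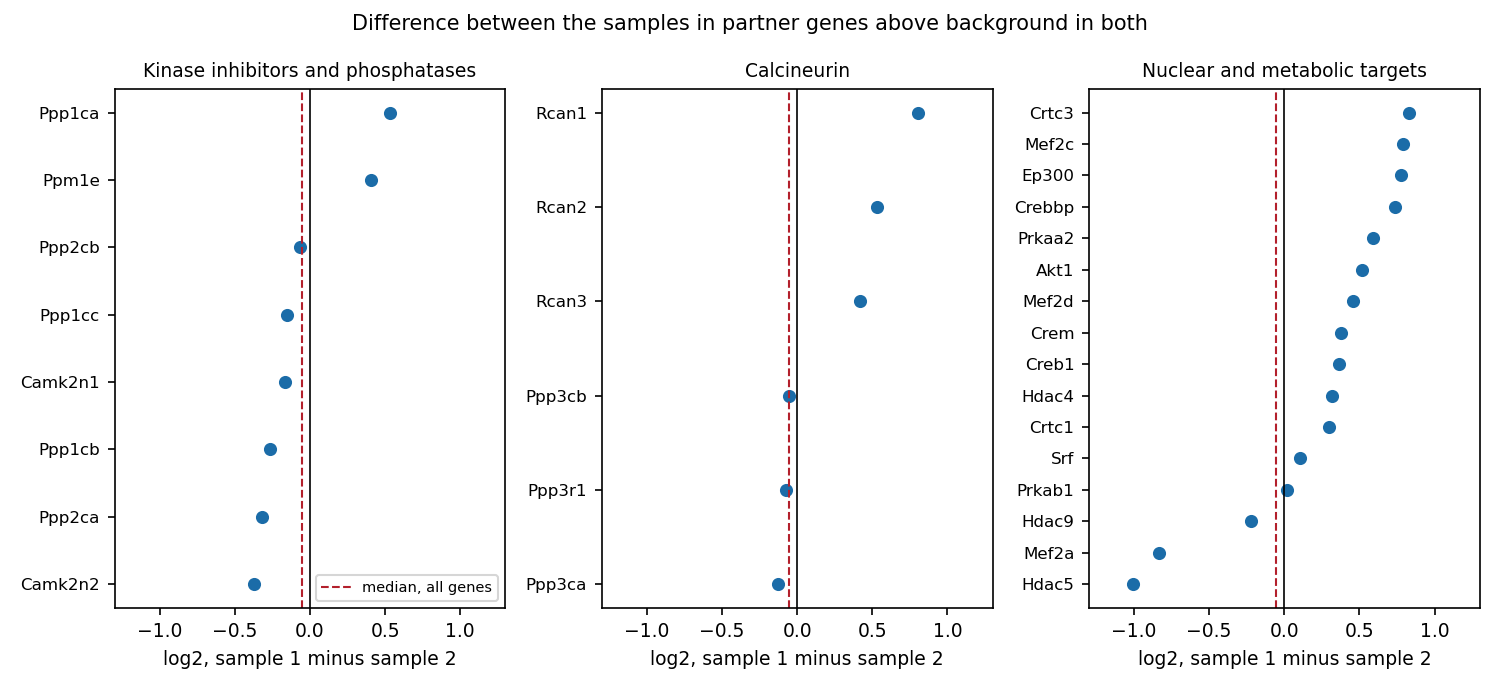
Difference between the samples (log2 intensity, sample 1 minus sample 2) for partner genes above background in both samples, in 3 lists; the dashed line is the median over all genes above background in both (-0.05). In the list of nuclear and metabolic targets 13 of 16 genes lie right of 0, in the calcineurin list 3 of 6, and among inhibitors and phosphatases 2 of 8.

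Of the synaptic targets and anchors of the type II kinase, 4 of 10 measured genes were above background in both samples. These were the actin crosslinker gene Actn4 (84.4 and 81.1), the postsynaptic scaffold Shank3 (105.0 and 158.0), the synaptic vesicle protein Syn1 (47.3 and 33.9) and the Rac activator Tiam1 (381.9 and 404.9). Not above background were Actn2 (12.1 and 5.7) and Dlg4 (14.3 and 12.5), which encodes the scaffold PSD-95.

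Relatives of the kinase family passed in 5 of 15 genes. The membrane-associated scaffold Cask gave 293.1 and 345.9, the doublecortin-like kinase Dclk1 621.0 and 648.6, the elongation factor 2 kinase Eef2k 260.0 and 170.6, the phosphorylase kinase subunit Phkg2 57.8 and 75.9, and Pnck, which encodes CaMKIβ, 49.6 and 35.3. Camkv (11.6 and 7.3), a kinase-like protein without known catalytic activity, and Dapk1 (8.0 and 4.0) were below background. For comparison with 2 other families of calcium signalling, 5 of 8 measured protein kinase C isoforms and 4 of 7 visinin-like calcium sensors were above background in both samples. These shares and the 6 of 9 of the calmodulin-dependent kinases were not tested against each other.

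**Figure D4:**
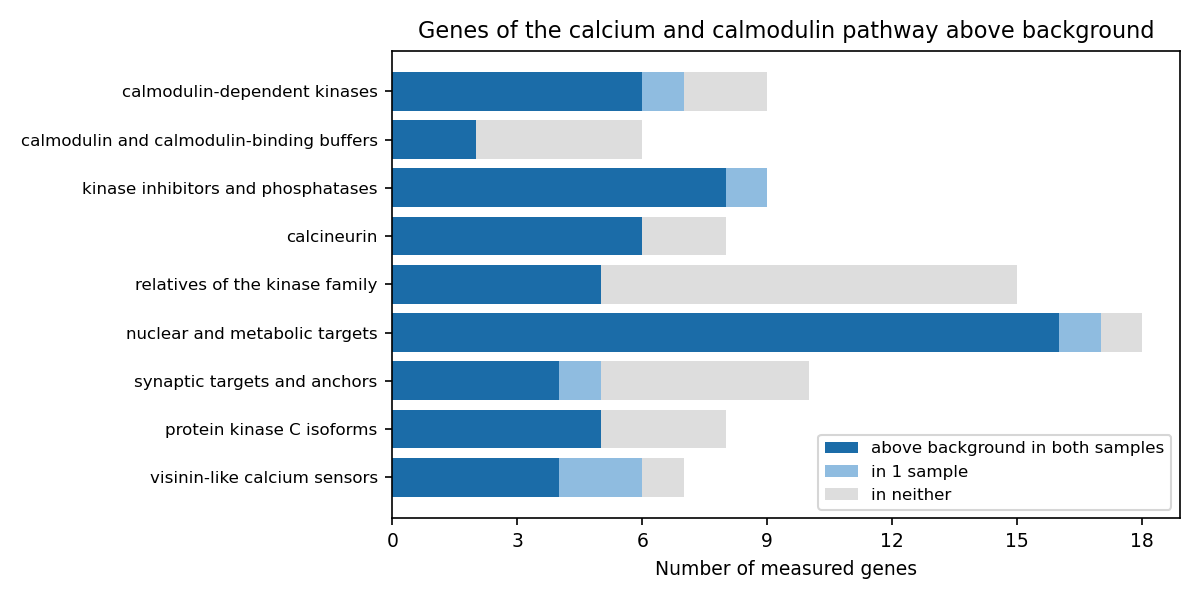
Number of measured genes in the kinase family and in 8 related lists that were above background in both samples, in 1 sample or in neither. The bars show 6 of 9 kinase genes, 16 of 18 nuclear and metabolic targets and 4 of 10 synaptic targets and anchors above background in both.

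The labelled tissue was checked against markers. All 13 granule neuron markers were above background in both samples, among them Gabra6 (8189.4 and 8327.0), Zic1 (6791.6 and 6715.8), Zic2 (129.2 and 121.8) and Neurod1 (3835.8 and 4296.6). Other cell types were in the samples too. Of 11 measured Purkinje cell markers 7 passed, including Pcp2 (158.9 and 176.7), Calb1 (209.9 and 197.2) and Car8 (217.6 and 282.0), and their summed intensity was 899 in sample 1 and 1125 in sample 2. Single Purkinje markers, named after their values were seen, went both ways: Rgs8 (107.9 and 273.9) and Ppp1r17 (20.6 and 72.4) were higher in sample 2, and Pvalb (107.1 and 52.8) in sample 1. The counts were 3 of 9 for GABAergic interneurons, 7 of 10 for astrocytes and Bergmann glia, 7 of 9 for oligodendrocytes, 3 of 8 for microglia, 5 of 8 for endothelial cells and pericytes and 0 of 5 for choroid plexus and blood. Summed intensities in samples 1 and 2 were 8079 and 7633.5 for oligodendrocytes and 5114.8 and 4975.2 for astrocytes and Bergmann glia. They were 1033.5 and 1070.6 for endothelial cells and pericytes, 665.1 and 645.4 for GABAergic interneurons and 22.4 and 42.4 for choroid plexus and blood. Sums depend on the probes and markers, so cell types were not ranked by them. The summed microglial intensity was 412 in sample 1 and 593 in sample 2. Named after their values were seen, Csf1r (251.4 and 410.8) was higher in sample 2, whereas Tyrobp (56.3 and 25.9) and Cx3cr1 (29.0 and 7.9, not above background in both) were higher in sample 1. No marker on these lists was listed at 0. The part of these cells in the kinase values was not tested, and in such bulk samples fewer cells of a type and less RNA per cell cannot be told apart.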

How the data were processed

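The values the authors deposited are linear signal intensities, 1 for each probe set on each array, made with GCOS, the Affymetrix operating software, per the submitters' processing notes. The software version, its settings and the scaling are not stated in the labels. The 2 samples form 1 group, and the number of arrays limits the precision. Of 45101 probe sets, 64 were controls. The platform annotation gave 1 symbol for 34958, several for 932 and did not list 9211, and 34754 matched RefSeq by gene ID. Values were used unscaled, and zeros (2 in sample 1, 1 in sample 2) were set to 0.1 before log2. Background was the 95th percentile of 69 measured genes (93 probe sets) of a list of 77 typical of other organs, and 3 of them exceeded it in both samples. The kinases and lists were chosen with earlier results of these data known. Named were every kinase probe set, list genes above background and up to 2 others in alphabetical order, and up to 4 markers in list order. Counts were made with Python 3.11.15, numpy 2.4.6 and pandas 2.3.3. The 2-fold calls were checked on simulated arrays with differences planted in brighter probe sets only. Calls on dim probe sets and the counts above background were not checked in this way. Alternatives were other thresholds, scalings, log offsets, probe set rules and each sample alone. A planned comparison of the kinase proteins was not made.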

Additional observations from a re-analysis of the deposited data

How the results depend on the processing

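Over the main counts and the median difference, 29 values under the alternatives stayed within set limits and 4 did not. For counts the limit was 1.5 times. For log2 differences it was the SD over all probe sets above background in both (0.68), divided by the square root of 2. That limit is wider than the reported median of -0.15, so a median of opposite sign could have counted as unchanged. The median ran from -0.21 to -0.03 under the alternatives. With the threshold at the 99th percentile, 4 kinase genes were above background in both samples in place of 6, a change of exactly 1.5 times. At that threshold 6 kinase probe sets were above background in both samples in place of 14, and 0 in place of 5 were 2-fold apart. The shares over all features fell too, from 42.6% to 22% of named genes and from 31.8% to 14.2% of probe sets. The count of 2-fold probe sets was 2 with log2(value + 16) and 9 with no filter on low values. Over the single probe sets and the other gene lists, 195 values stayed within these limits and 15 moved. Among the counts that moved, that of nuclear and metabolic targets was 6 in place of 16 at the 99th percentile. With sample 1 alone 6 kinase genes and 17 kinase probe sets were above background, against 47.2% of all named genes and 39.1% of all probe sets. With sample 2 alone the counts were 7 and 19, against 48% and 36.9%. Camkk2, Camk4, Camk1d and Camk2b were above background under every setting run for the gene count. Camk2d and Camk2g failed at the 99th percentile alone, Camk2a and Camk1g passed under none, and Camk1 passed at the 90th percentile, with the olfactory receptor background and in sample 2 alone. Intensities near the thresholds limit what can be said of Camk1 and Camk1g. No paired analysis was possible because there was only 1 group.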
